A study of Mus musculus with 6 samples.

Results

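Transcripts of 30 lysosome genes were followed across spatial libraries of mouse kidney. The genes were chosen by symbol, as proteins that reside in the lysosome or control its genes, and all 30 were found among the 32285 genes measured. By role they were 6 membrane proteins, 9 proteases, 8 glycosidases, 5 proteins of lipid handling and 2 regulators.

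The series compared Alport syndrome, a hereditary kidney disease caused by mutations of type IV collagen chains, with wild type and with a treatment called hEV. Frozen kidneys were cryosectioned onto 10x Genomics Visium slides, on which each barcoded spot captures RNA from the several cells above it, and RNA was counted as unique molecular identifiers (UMIs). There were 6 libraries, 1 in each group. The first was 2m AS, untreated Alport kidney of genotype B6.Cg-Col4a5tm1Yseg at 2 months. The second was 5m AS, the same genotype untreated at 5 months. A further pair, early treated and late treated, came from that genotype at 5 months with hEV. The mixed library held WT female and Hetero female kidney together, of genotypes B6C57 and B6.Cg-Col4a5tm1Yseg. The last was WT, of genotype B6C57. The sources used here give no age for WT or the mixed library, no dose or date of hEV, no definition of early or late and no number of animals per library. The Alport allele is a germline change on the X chromosome, carried in every cell.

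The lysosome is the acidic compartment in which cells break down proteins, sugars and lipids that arrive by endocytosis, phagocytosis or autophagy. In the kidney it is most prominent in the proximal tubule, which reabsorbs filtered protein and degrades it there, and in macrophages, which take up debris. Many lysosomal genes are known to be driven together by the transcription factor TFEB and its relatives, which bind a short DNA element built around the letters CACGTG.

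The promoter windows of the lysosome genes are shown here because that element is the feature the family is best known to share. Of the 30 genes, 26 had a window in the RefSeq table of build GRCm38.p6, each 300 bases long with 250 before the start of transcription. CACGTG, which reads the same on both strands, was present in the windows of 10 of the 26 genes (38.5%), against 8.09% of all 27025 genes in the table. Of the longer forms that contain it, GTCACGTG on either strand was in 8 of 26 (30.8%), against 2.55%. TCACGTGA, which overlaps GTCACGTG by all but the ends, was in 4 of 26 (15.4%), against 1.12%. The 10-letter palindrome that extends both was in 0 of 26, against 0.37% of all genes. The genes with CACGTG were Lamp1, Mcoln1, Ctsa, Ctsd, Ctsl, Lgmn, Gla, Glb1, Naglu and Gaa. A match describes the letters only, and its absence from a window says nothing about a factor.

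Below are the 120 bases before the annotated gene start, 5′ to 3′ on the gene's own strand, for 4 genes with the motif and for 3 of the genes without it that passed 1.5-fold between 5m AS and WT. Capitals mark CACGTG. Lamp1 lies at chr8:13159041-13159160 on the plus strand, with 4 matches whose first bases are 61, 45, 28 and 15 bases before the start. Glb1 lies at chr9:114400956-114401075 (plus strand). Gla lies at chrX:134601126-134601245 (minus strand). Gaa lies at chr11:119267767-119267886 (plus strand). Ctsc lies at chr7:88277965-88278084 (plus strand), Lipa at chr19:34527475-34527594 (minus strand) and Neu1 at chr17:34931133-34931252 (plus strand).
Lamp1: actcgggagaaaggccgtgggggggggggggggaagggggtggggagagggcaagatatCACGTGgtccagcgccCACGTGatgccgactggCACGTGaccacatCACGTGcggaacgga
Glb1: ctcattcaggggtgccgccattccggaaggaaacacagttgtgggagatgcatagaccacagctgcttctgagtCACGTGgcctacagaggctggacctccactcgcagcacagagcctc
Gla: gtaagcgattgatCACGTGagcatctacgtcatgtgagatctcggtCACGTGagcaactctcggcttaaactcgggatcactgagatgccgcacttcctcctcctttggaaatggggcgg
Gaa: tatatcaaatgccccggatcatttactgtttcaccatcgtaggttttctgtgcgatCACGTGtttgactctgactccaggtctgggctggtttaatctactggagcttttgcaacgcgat
Ctsc: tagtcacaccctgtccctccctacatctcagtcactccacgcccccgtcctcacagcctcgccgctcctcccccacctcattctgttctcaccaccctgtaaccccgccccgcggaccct
Lipa: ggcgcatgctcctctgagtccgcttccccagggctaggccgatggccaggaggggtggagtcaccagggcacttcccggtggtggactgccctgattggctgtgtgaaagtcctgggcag
Neu1: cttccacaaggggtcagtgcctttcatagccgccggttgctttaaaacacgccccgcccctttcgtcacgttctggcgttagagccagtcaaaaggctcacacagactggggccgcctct

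Depth was high for genes of this abundance. The libraries held 1997 to 4093 spots and 48940875 to 91976637 UMIs, and members other than Gla had between 823 and 166471 UMIs in a library. Values are given as scaled CPM, UMI counts per library total (CPM) after a correction for library composition (TMM). Genes reaching 5 scaled CPM in either library of a comparison were taken as measured, and a ratio of at least 1.5-fold was counted as higher or lower. Gla, which encodes the enzyme missing in Fabry disease, stayed between 2.72 and 4.81 scaled CPM in every library, so 29 of the 30 members were measured in each comparison. With 1 library per group no difference could be tested, and the 95% intervals of ratios (exact, for Poisson counts) hold counting error alone and leave out variation between animals and between sections. Fewer cells of a type and less RNA per cell cannot be told apart in such spots.

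Several properties of whole libraries moved with the groups. Col4a5, the gene of the Alport allele, stood at 6.54 scaled CPM in 2m AS, 3.39 in 5m AS, 5.52 in the early treated library, 5.57 in the late treated library, 13.2 in the mixed library and 11.9 in WT. All 4 Alport libraries were below the other 2. Ddx3y, which lies on the Y chromosome, was at 0 in the mixed library, where 3 counts would be 0.0430 scaled CPM, and at 22.9 in WT, with the Alport libraries at up to 27.2. A list of 14 macrophage markers summed to 287 in 2m AS, 1538 in 5m AS, 926 in the early treated library, 682 in the late treated library, 399 in the mixed library and 207 in WT. A list of 8 injured tubule markers summed to 1319, 6874, 4708, 2433, 2502 and 824 in the same order, and 8 early proximal tubule markers to 7392, 4146, 6521, 8069, 7297 and 11156. Space Ranger 1.2.1 produced the counts of 5m AS and WT, while version 1.3.1 was used for the remaining 4. Where versions differ, version and group cannot be told apart.

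The summed lysosome genes were almost level. They came to 10571 scaled CPM in 2m AS, 10847 in 5m AS, 9991 in the early treated library, 10254 in the late treated library, 9523 in the mixed library and 10526 in WT. The 5m AS sum was 1.03 times the WT sum. Roles within it moved apart, with genes of lipid handling at 3216 in 5m AS and 2451 in WT, and glycosidases at 842 and 1081. Membrane proteins came to 2991 and 3086, proteases to 3538 and 3684 and regulators to 260 and 224. Psap, a gene of lipid handling, alone had 2808 and 1950. Without the composition correction the picture differed, since the 30 genes took 1.23% of all UMIs in 5m AS, and no less than 1.18% in the treated libraries, against 0.903% in WT. The shares were 0.846% in 2m AS and 0.889% in the mixed library. Over single spots, the median share was 1.23% in 5m AS, with 10% of spots below 1.05%, against 0.893% in WT, with 10% of spots above 1.07%. The median log2 ratio of all genes in 5m AS over WT was -0.12 with the correction and 0.29 without it, so ratios are best read against that median.

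**Figure D1:**
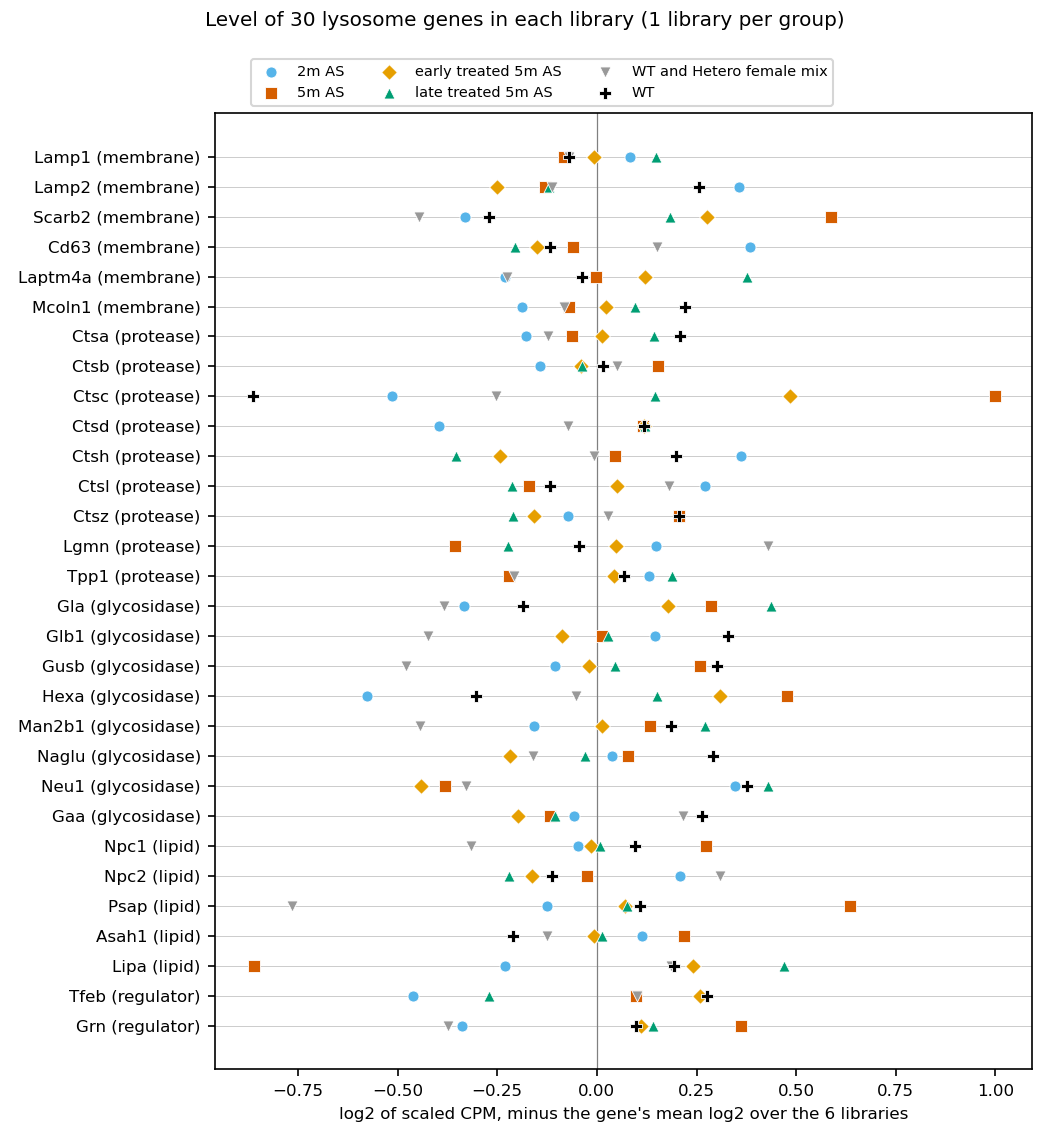
Level of each lysosome gene in 6 libraries (x axis: log2 of scaled CPM minus the gene's mean log2 over the libraries; y axis: genes by role; 1 point per library). Ctsc spans the widest range, with 5m AS at 71.0 and WT at 19.5 scaled CPM, while Lipa is lowest in 5m AS at 118.

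At 5 months, untreated Alport kidney differed from WT in a few lysosome genes in both directions, not in the family as a whole. Of 29 measured members, 3 were higher in 5m AS (10.3%, against 11.9% of the 11032 genes measured) and 2 were lower (6.90%, against 12.0%). These shares are close to or under the background. The median log2 ratio of members was -0.044, against -0.12 for all genes.

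Ctsc, cathepsin C, a dipeptidyl peptidase that activates the serine proteases of immune cells, had 24.9 scaled CPM in 2m AS, 71.0 in 5m AS, 49.7 in the early treated library, 39.3 in the late treated library, 29.8 in the mixed library and 19.5 in WT. It was highest in 5m AS and lowest in WT. Its ratio of 5m AS over WT was 3.64 (3.42 to 3.87). Scarb2, which encodes LIMP-2, a membrane protein that carries glucocerebrosidase to the lysosome, had 39.4, 74.5, 60.1, 56.3, 36.4 and 41.1 in the same order of libraries, with a ratio of 1.81 (1.73 to 1.90). Hexa, the alpha subunit of beta-hexosaminidase that is lost in Tay-Sachs disease, had 49.1, 102, 90.6, 81.3, 70.6 and 59.4, with a ratio of 1.72 (1.65 to 1.79). For both genes the 3 libraries of 5-month Alport kidney were above the other 3, though Hexa of 5m AS was under the mark over the mixed library. Its log2 ratio there was 0.53, between libraries that also differ in sex and in Hetero kidney.

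Lipa, lysosomal acid lipase, which frees cholesterol and fatty acids from lipoprotein lipids, had 182 scaled CPM in 2m AS, 118 in 5m AS, 253 in the early treated library, 297 in the late treated library, 244 in the mixed library and 245 in WT. It was lowest in 5m AS. The ratio of 5m AS over WT was 0.481 (0.468 to 0.495). Neu1, a sialidase of the lysosome, had 508 in 2m AS, 307 in 5m AS, 295 in the early treated library, 538 in the late treated library, 319 in the mixed library and 519 in WT. Its values lay at 2 levels, with 5m AS, early treated and the mixed library near 300 and the other 3 above 500. Its ratio of 5m AS over WT was 0.591 (0.581 to 0.602). The Neu1 difference rested on the library it was set against, since the log2 ratio of 5m AS was -0.76 over WT and -0.055 over the mixed library. The mixed library was female and part Hetero, while 5m AS had Ddx3y RNA. Sex, Hetero kidney and Space Ranger version thus differ in that second comparison and cannot be told apart. Without the composition correction Neu1 came to -0.36, under the 1.5-fold mark, and Lipa to -0.66. The median log2 ratio of all genes was then 0.29, against -0.12 with the correction, so both stayed below it.

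Within roles the other members stayed inside 1.5-fold of WT. Among membrane proteins, Lamp1 and Cd63, the common markers of lysosomes and late endosomes, had ratios of 0.991 and 1.04, and Lamp2, which also takes part in chaperone-mediated autophagy, 0.765. Mcoln1, a calcium channel of the lysosome, had a ratio of 0.818, and Laptm4a, a membrane protein of late endosomes and lysosomes, 1.02. Among proteases, cathepsins B, D, L and Z (Ctsb, Ctsd, Ctsl and Ctsz) had ratios of 1.10, 0.998, 0.965 and 0.999, and Lgmn, the asparaginyl endopeptidase legumain, 0.806. Ctsa, which protects Neu1 and Glb1 in a shared complex, had a ratio of 0.829, Ctsh, an aminopeptidase of the cathepsin family, 0.900, and Tpp1, a tripeptidyl peptidase, 0.818. The 5 other measured glycosidases were all at or below WT. Glb1 had a ratio of 0.804, Gusb 0.970, Man2b1 0.964, Naglu, an enzyme of heparan sulfate breakdown, 0.863, and Gaa, which breaks down glycogen, 0.768. Among genes of lipid handling, Psap, the precursor of the saposins that help degrade sphingolipids, had 2808 scaled CPM in 5m AS and 1950 in WT, a ratio of 1.44 (1.43 to 1.45). Asah1, acid ceramidase, had a ratio of 1.34 and the cholesterol transporter genes Npc1 and Npc2 had 1.13 and 1.06. Tfeb itself had 23.2 in 5m AS and 26.3 in WT, a ratio of 0.883 (0.822 to 0.947). Grn, the precursor of granulins needed for lysosome function, had 237 in 5m AS and 198 in WT.

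**Figure D2:**
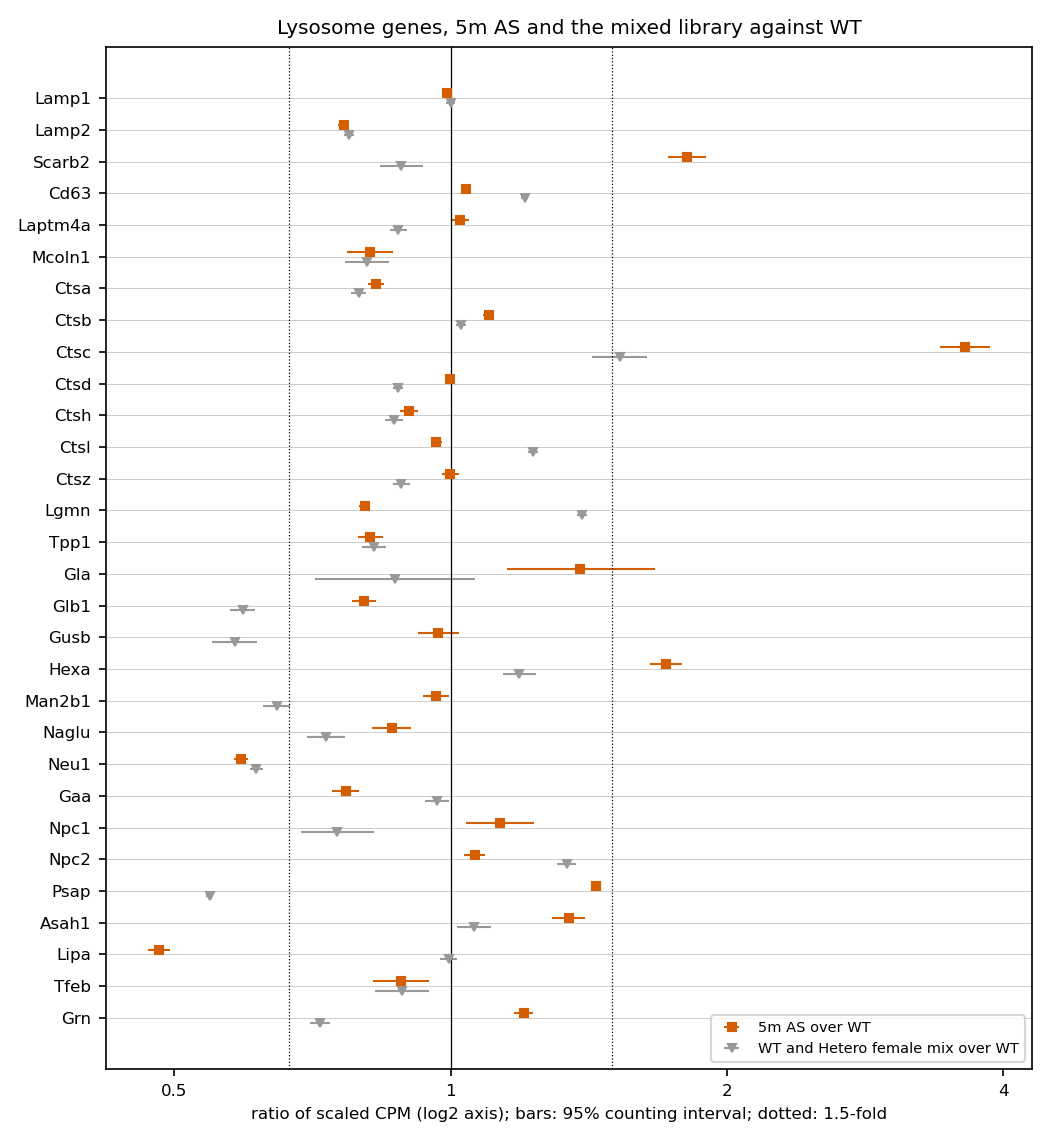
Ratio of scaled CPM of each lysosome gene, 5m AS over WT (squares) and the mixed library over WT (triangles), on a log2 axis, with 95% counting intervals as bars and dotted lines at 1.5-fold. Ctsc, Scarb2 and Hexa lie above the upper line in 5m AS, while Lipa and Neu1 lie below the lower line, where Neu1 of the mixed library lies as well.

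Ctsc, Scarb2 and Hexa, the members past 1.5-fold higher in 5m AS, were also higher in spots rich in macrophage RNA, as were other members. Spots of each library were ranked by the summed share of the 14 macrophage markers, and the top 25% were set against the bottom 25%. Ctsc was at least 1.5-fold higher in the macrophage-rich spots in 6 of 6 libraries, by 1.58 to 4.48 times. Scarb2 was higher there in 6 of 6 libraries, by 1.26 to 2.40 times, and Hexa in 6 of 6, by 1.28 to 2.61 times. Scarb2 reached 1.5-fold in 4 libraries and Hexa in 3. Npc2 and Grn were also higher in 6 of 6, by 1.09 to 1.96 and 1.06 to 1.65 times. So were Laptm4a, Ctsb, Gla, Npc1, Asah1 and Tfeb, none of them past 1.5-fold higher in 5m AS over WT. The share of all genes higher in these spots was not counted. Lamp1, in contrast, was higher there in 1 of 6 libraries, with a lowest ratio of 0.862, and Psap had ratios between 0.898 and 1.18. The spots so ranked differed in depth, most in the early treated library, where the macrophage-rich spots had a median of 7101 UMIs and the macrophage-poor spots 17488.

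When spots of like macrophage share were compared, the plain ratios of Ctsc, Scarb2 and Hexa were smaller than over all spots. Those of Lipa and Psap were close to their values over all spots, while the median of all genes moved down. All spots were divided into 4 ranges of macrophage share, with common limits at the quartiles over spots when each library had equal weight. The third range, 422 to 1052 CPM of marker RNA per spot, held 531 spots of 5m AS and 234 of WT. The median log2 ratio of all genes was -0.38 there, with 3.54% of genes higher and 25.9% lower, against -0.12 over all spots, and the ratios are to be read against it. In that range Ctsc had 39.5 scaled CPM in 5m AS and 34.2 in WT, a ratio of 1.15 (interval up to 1.43, spanning equality). Scarb2 had a ratio of 1.23 (1.03 to 1.47) and Hexa of 0.909 (0.790 to 1.05). Lipa had 112 in 5m AS and 238 in WT, a ratio of 0.469 (0.431 to 0.511). Psap had 2924 in 5m AS and 2067 in WT, a ratio of 1.41 (1.38 to 1.45), and Neu1 a ratio of 0.731 (0.691 to 0.774). As log2 ratios, Ctsc, Scarb2, Hexa and Psap came to 0.20, 0.29, -0.14 and 0.50, all above the median of all genes in that range. Lipa came to -1.09, below that median, and Neu1 to -0.45, close to it. The top range, with 72.0% of 5m AS spots and 0.171% of WT spots, allowed no such comparison. The spots of the third range are 26.7% of 5m AS and 5.72% of WT, so they sample different parts of the 2 libraries.

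**Figure D3:**
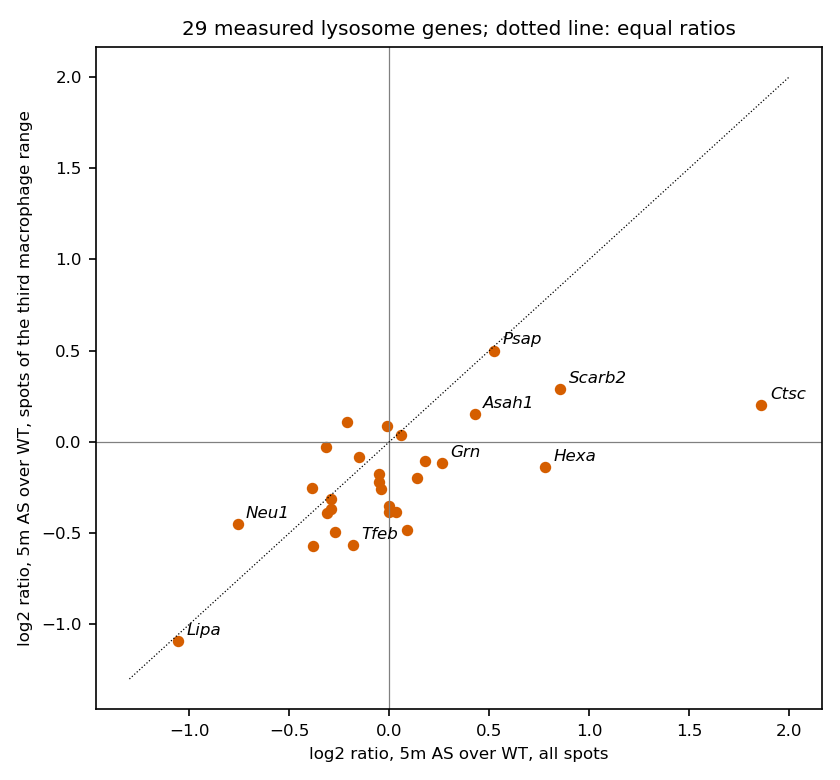
Log2 ratio of 5m AS over WT for 29 lysosome genes, over all spots (x axis) and over the spots of the third range of macrophage marker share (y axis), 1 point per gene, dotted line at equal ratios. Ctsc, Scarb2 and Hexa lie far below the line, with ratios of 3.64 and 1.15, 1.81 and 1.23, and 1.72 and 0.909, while Lipa and Psap lie close to it. The median log2 ratio of all genes was -0.12 over all spots and -0.38 in the third range.

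Other members followed the tubule. Ranked by early proximal tubule markers, the richest 25% of spots had 1.74 to 4.47 times the Lipa of the poorest in 6 of 6 libraries. Lgmn had 1.43 to 2.74 times and Neu1 1.39 to 2.13 times as much there, each in 6 of 6. Lamp1, Lamp2, Cd63, Mcoln1, Ctsa, Ctsz, Tpp1, Man2b1 and Gaa were also higher there in 6 of 6. Ctsc was lower there in 6 of 6, at 0.264 to 0.542 times, as were Scarb2 and Asah1 by smaller ratios. By late proximal tubule markers, Glb1, the lysosomal beta-galactosidase, was higher in 6 of 6 libraries, by 1.48 to 1.70 times, and so was Ctsh. Hexa was lower in 6 of 6, at 0.287 to 0.498 times. Also lower in 6 of 6 were Laptm4a, Ctsa, Ctsb, Ctsd, Ctsl, Ctsz, Lgmn, Gla, Gaa, Npc1, Npc2, Tfeb and Grn. By injured tubule markers Hexa was higher in 6 of 6, by 1.54 to 3.04 times. Also higher in 6 of 6 were Laptm4a, Ctsa, Ctsb, Ctsd, Ctsl, Ctsz, Lgmn, Gla, Npc1, Npc2, Tfeb and Grn. Lamp2 and Glb1 were lower in 6 of 6. Ctsc and Scarb2 were each higher in 5 of 6 by those markers, at 0.905 to 3.42 and 0.869 to 1.88 times. The share of all genes higher or lower in these rankings was not counted. Depth differed here too. In the mixed library, spots richest in late markers had a median of 30959.5 UMIs and the poorest 12207.5. The role of these cell types in the differences between libraries was not tested.

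Grouping all spots by expression, with the 30 members left out, gave 8 kinds of spot with at least 20 spots in every library. In spots led by Slc5a12 and Car3, which hold early proximal tubule, the summed members stood highest in the mean over libraries, at 0.18 log2 above the mean of the 8 kinds. The differences between kinds were small for the sum, down to -0.10 in spots led by Klk1 and S100g. They were larger for single genes. Scarb2 stood 0.63 above its mean in spots led by the smooth muscle genes Myh11 and Acta2. Hexa stood 0.72 below its mean in spots led by Slco1a1 and Azgp1, and Lgmn and Lipa 0.49 and 0.45 above theirs in the Slc5a12 and Car3 spots.

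**Figure D4:**
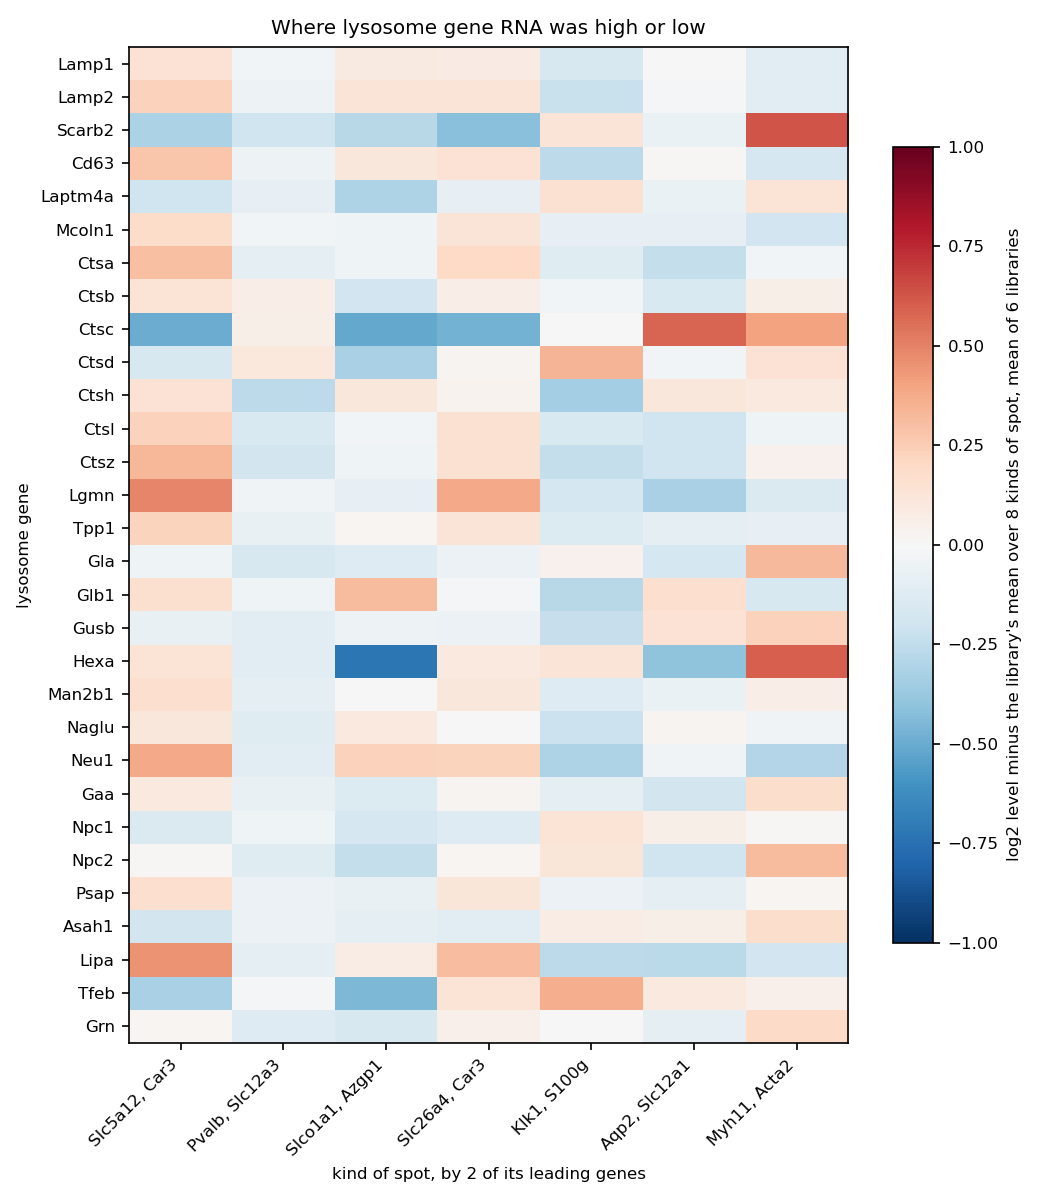
Colour gives the log2 level of each lysosome gene (y axis) in 7 of the 8 kinds of spot (x axis, named by 2 leading genes), minus the library's mean over all 8, averaged over 6 libraries. Lgmn, Lipa and Neu1 are red in the Slc5a12 and Car3 spots, where Ctsc is at -0.50, and Scarb2 and Hexa are red in the Myh11 and Acta2 spots.

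The differences at 5 months were present in the kinds of spot that could be compared. These were the 9 kinds in which 5m AS and WT each had at least 20 spots, and they hold 908 of the 1992 spots of 5m AS, most of the others being in kinds with fewer than 20 spots in WT. Lipa was lower in all 9, with log2 ratios of -1.25 to -0.43, and Neu1 in all 9, with -0.91 to -0.56. Ctsc was higher in all 9, with 1.15 to 1.92, as were Scarb2, with 0.63 to 0.97, and Hexa, with 0.70 to 1.22. Psap was higher in all 9, with 0.28 to 0.79. Over the 8 shared kinds of spot, Psap had 2329 to 2804 scaled CPM in 5m AS, 1746 to 2185 in WT and 891 to 1230 in the mixed library. The ranges of WT and the mixed library were thus apart from each other as well, and such ranges were not compared over all genes.

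From 2 to 5 months, comparing 5m AS with 2m AS, 5 of 29 members were higher (17.2%, against 16.9% of 11100 genes) and 2 were lower (6.90%, against 19.6%). The median log2 ratio of members was 0.12, against -0.044 for all genes. Ctsc had a ratio of 2.85 (2.70 to 3.01), Hexa of 2.08 (1.99 to 2.17) and Scarb2 of 1.89 (1.80 to 1.98). Psap, at 2808 in 5m AS and 1658 in 2m AS, had 1.69 (1.68 to 1.71), and Grn, at 237 in 5m AS and 146 in 2m AS, had 1.62 (1.58 to 1.67). Neu1 and Lipa were lower, with ratios of 0.604 (0.593 to 0.615) and 0.646 (0.627 to 0.665). The Lipa ratio came under 1.5-fold in several settings, with log2 values of -0.37 and -0.43 when averaged over shared kinds of spot at the coarser and the finer grouping, -0.54 without mitochondrial genes and -0.55 without spots led by late tubule segments. Both comparisons use the 5m AS library. Without the composition correction the median log2 ratio of all genes came to 0.47, and 16 of 29 members were higher and none was lower. Of all genes, 42.1% were then higher and 5.09% lower. Neu1 and Lipa came to log2 ratios of -0.23 and -0.13. Within the third macrophage range, Ctsc had 39.5 scaled CPM in 5m AS and 40.6 in 2m AS, giving a ratio of 0.973 (0.842 to 1.13), while Psap kept a ratio of 1.69 (1.65 to 1.72). The median log2 ratio of all genes was -0.37 in that range, with 32.3% of genes lower, against -0.044 over all spots.

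At 2 months, none of 29 members was higher in 2m AS than in WT (0%, against 7.78% of 10583 genes) and 1 was lower (3.45%, against 8.28%). Tfeb had 15.8 scaled CPM in 2m AS and 26.3 in WT, a ratio of 0.599 (0.556 to 0.645). It was the lowest of the 6 libraries, but over the mixed library its log2 ratio was -0.56, under the mark. The mixed library was female and part Hetero, while 2m AS had Ddx3y at 22.3 scaled CPM. The median log2 ratio of members was -0.18, against -0.047 for all genes. The largest ratio was that of Cd63, at 1.42, and the 7 measured glycosidases lay between 0.754 and 0.979.

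After early hEV treatment, 1 of 29 members was higher than in untreated 5m AS (3.45%, against 3.98% of 10983 genes) and none was lower (0%, against 4.86%). Lipa had 253 scaled CPM in the early treated library and 118 in 5m AS, with a ratio of 2.15 (2.09 to 2.21). After late treatment, 2 of 29 were higher (6.90%, against 7.94% of 11064 genes) and 1 was lower (3.45%, against 11.1%). Lipa had 297 in the late treated library and 118 in 5m AS, with a ratio of 2.52 (2.45 to 2.59). Neu1 had 538 in the late treated library and 307 in 5m AS, with a ratio of 1.75 (1.72 to 1.79). Ctsc had 39.3 in the late treated library and 71.0 in 5m AS, with a ratio of 0.554 (0.527 to 0.582). Both comparisons share the 5m AS library, as do the values of 5m AS over WT. Median log2 ratios of members were -0.12 early and -0.11 late, against -0.0083 and -0.027 for all genes.

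Psap, just inside the mark, was lower in the treated libraries. It had 1898 scaled CPM in the early treated library and 1906 in the late treated library, against 2808 in 5m AS, with ratios of 0.676 (0.671 to 0.681) and 0.679 (0.674 to 0.684). Across kinds of spot it was lower in 11 of 11 early and in 12 of 12 late. Lipa was higher in 11 of 11 kinds early, with log2 ratios of 0.028 to 1.15, and in 12 of 12 late, with 0.33 to 1.56. Neu1 was higher in 12 of 12 late, with 0.56 to 1.42, and lower in 9 of 11 early.

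Within spots of like macrophage share, the treated libraries differed from 5m AS in Lipa and Psap, and little in Ctsc. In the third range Lipa had 252 scaled CPM in the early treated library, 290 in the late treated library and 112 in 5m AS, with ratios of 2.25 (2.14 to 2.37) early and 2.60 (2.47 to 2.73) late. Psap had ratios of 0.640 (0.632 to 0.648) early and 0.644 (0.636 to 0.652) late. Ctsc had ratios of 0.942 (0.854 to 1.04) early and 0.913 (0.828 to 1.01) late. Neu1 and Laptm4a also passed 1.5-fold in late treated over 5m AS, with ratios of 1.52 (1.48 to 1.56) and 1.54 (1.48 to 1.59) in that range, and of 1.55 and 1.60 in the top range. With Lipa they made 3 of 29 members higher in the third range, where 13.0% of all genes were higher. In the top range 3 of 30 members and 13.8% of all genes were higher. The median log2 ratio of all genes late was 0.13 in the third range and 0.15 in the top range, and early it was 0.093 in the third range. In the top range, Ctsc had 86.8 scaled CPM in the late treated library and 86.0 in 5m AS, with a ratio of 1.01 (interval up to 1.08, spanning equality), and Lipa had 269 in the late treated library and 121 in 5m AS, with a ratio of 2.23 (2.13 to 2.33). Early proximal tubule markers, with which Lipa varied over spots, were also higher in the treated libraries, and their part in the Lipa difference was not tested. The treated libraries and 5m AS also differ in Space Ranger version.

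**Figure D5:**
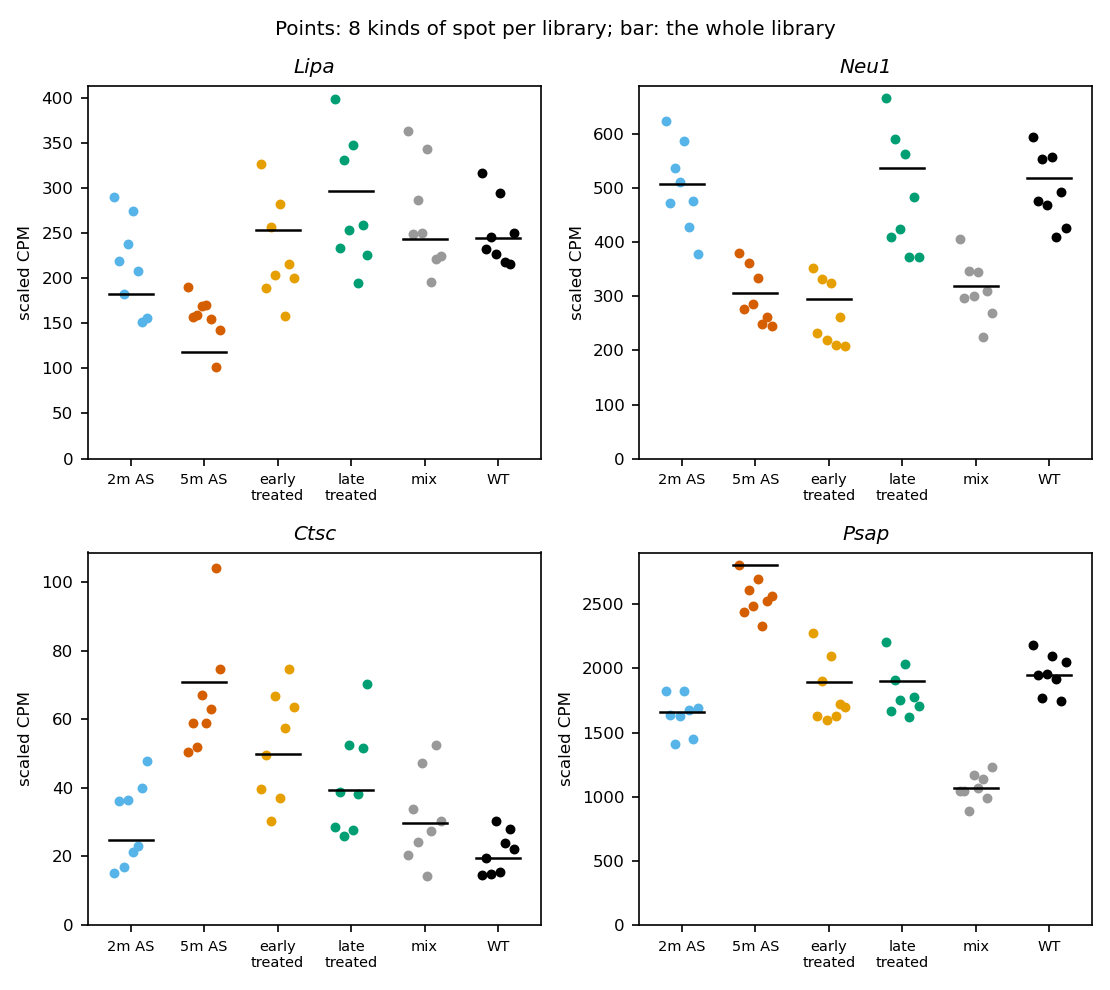
Scaled CPM (y axis, from 0) of Lipa, Neu1, Ctsc and Psap in 6 libraries (x axis), with 1 point for each of 8 kinds of spot and a bar for the whole library. Neu1 of early treated spans 209 to 353 over kinds of spot and that of late treated 373 to 667, and Psap of the mixed library spans 891 to 1230.

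Set against each other, the treated libraries differed in 1 member. Of 29, none was higher in early than in late treated (0%, against 3.70% of 10858 genes) and 1 was lower (3.45%, against 2.02%). Neu1 had 295 scaled CPM in the early treated library and 538 in the late treated library, a ratio of 0.547 (0.538 to 0.558). It was lower in early treated in 13 of 13 kinds of spot, with log2 ratios of -1.43 to -0.57, and in all 4 macrophage ranges. Over the 8 shared kinds of spot, Neu1 had 209 to 353 in early and 373 to 667 in late treated. Tfeb, at 25.9 early and 18.0 late, came next, with a ratio of 1.44 (1.34 to 1.56).

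The mixed library, which held female kidney only, had less RNA of several glycosidases than WT. Of 29 members, 1 was higher (3.45%, against 7.87% of 10680 genes) and 5 were lower (17.2%, against 8.61%). Of the 7 glycosidases measured, 4 were lower. Gusb, beta-glucuronidase, an enzyme that androgens are known to induce in mouse kidney, had 28.2 scaled CPM in the mixed library and 48.6 in WT, a ratio of 0.582 (0.550 to 0.615). Glb1 had 89.4 in the mixed library and 151 in WT, a ratio of 0.593 (0.575 to 0.612). Man2b1, lysosomal alpha-mannosidase, had a ratio of 0.647 (0.625 to 0.669) and Neu1 of 0.614 (0.604 to 0.624). Psap had 1065 in the mixed library and 1950 in WT, a ratio of 0.546 (0.541 to 0.551). Ctsc was higher, at 29.8 in the mixed library and 19.5 in WT, a ratio of 1.53 (1.43 to 1.64). Without the composition correction, Man2b1 and Neu1 came to log2 ratios of -0.51 and -0.58, just inside the mark, while Glb1, Gusb and Psap stayed past it. The median log2 ratio of all genes was then 0.058, against -0.065 with the correction. Glb1, Gusb, Man2b1 and Psap had their lowest values of the 6 libraries here, while Neu1 did not. Sex, the added Hetero kidney and the Space Ranger version differ together between these libraries and cannot be told apart.

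Among 29 other lysosomal hydrolases measured, 9 were lower in the mixed library than in WT (31.0%, against 8.61% of all genes) and 3 were higher (10.3%, against 7.87%). Without the composition correction they were 5 and 4, with 5.84% of all genes lower and 11.6% higher. Galns, which cuts sulfate from keratan sulfate, had 15.9 scaled CPM in the mixed library and 103 in WT, a ratio of 0.155 (0.146 to 0.165). Ppt2, a lysosomal thioesterase, had a ratio of 0.331, and Galc, galactosylceramidase, of 0.563. Ctsk, Plbd1 and Arsa were the 3 that were higher, with ratios of 1.69, 2.14 and 1.60.

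In 5m AS over WT, of 29 other hydrolases, 5 were higher (17.2%, against 11.9% of all genes) and 2 lower (6.90%, against 12.0%), with a median log2 ratio of -0.14. Ctss, cathepsin S, the protease of antigen-presenting cells, had 127 scaled CPM in 5m AS and 16.1 in WT, a ratio of 7.86 (7.38 to 8.38). Ctsk, cathepsin K, a collagen-cleaving protease, had a ratio of 4.82 (4.27 to 5.46), with 23.1 in 5m AS and 4.78, under the minimum level, in WT. Of 20 genes listed as other membrane proteins, 3 were higher and 2 lower (10.0%, against 12.0% of all genes). The 3 higher genes include Lgals3, a lectin, and are too few to set apart from the 11.9% of all genes. Gpnmb, a glycoprotein of phagocytes, had 7.76 in 5m AS and 0.0878 in WT, a ratio of 88.4 (40.3 to 242). Its WT value was near the floor, since 3 counts would be 0.0439 scaled CPM in WT. Gpnmb and Slc11a1, at 8.28 in 5m AS and 2.08 in WT, were measured through 5m AS alone. Lgals3, a lectin that marks damaged lysosomes, had a ratio of 3.75. Both measured cathepsin inhibitors were higher, Cstb with a ratio of 2.33 and Cst3 with 1.61.

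Among genes that acidify the lysosome, of 16 subunits and partners of the V-ATPase, the proton pump, none was higher and 3 were lower in 5m AS than in WT (18.8%, against 12.0% of all genes), with a median log2 ratio of -0.48, against -0.12 for all genes. Atp6v1e1 had 295 scaled CPM in 5m AS and 495 in WT, a ratio of 0.596 (0.585 to 0.607), and Atp6v1b2 a ratio of 0.605 (0.590 to 0.620). Intercalated cells, which carry this pump at high level on their surface, had marker sums of 140 scaled CPM in 5m AS and 522 in WT, and their part in the difference was not tested. Of 20 autophagy genes none was higher and 2 were lower (10.0%, under the share of all genes). Gabarapl1, of the family that labels autophagosomes, had 316 in 5m AS and 729 in WT, a ratio of 0.433 (0.426 to 0.440). Of 19 genes of the TFEB family and of mTORC1 at the lysosome, none was higher and 2 were lower (10.5%, also under that share), Mtor with a ratio of 0.511 and Fnip2 with 0.585. Mtor was also lower in the mixed library than in WT, with a ratio of 0.541. No gene of 10 for mannose 6-phosphate sorting, the route that delivers new enzymes to the lysosome, passed 1.5-fold. These counts moved with the composition correction. Without it none of the 16 V-ATPase genes was lower, with a median log2 ratio of -0.083 against 0.29 for all genes. Of 29 other hydrolases, 8 were then higher and 1 lower. Of all genes, 24.2% were then higher and 3.71% lower. The autophagy genes then had a median of 0.18, above zero but still under that of all genes, with 1 of 20 lower.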

How the data were processed

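Visium libraries of frozen mouse kidney, 1 per group, were analysed from the deposited counts of UMIs per gene and spot, which are raw. The file headers say that the authors used Space Ranger 1.2.1 (5m AS and WT) or 1.3.1 (the others), and the submitters' processing notes name the mm10 build. The sources used here give neither the annotation nor the handling of strand. For 9 of the 30 members another listed gene overlaps the locus (Lamp1, Ctsa, Ctsb, Ctsl, Ctsz, Glb1, Hexa, Npc1 and Grn), so reads of the pair may be mixed. Of 4922 spot barcodes 486 occurred in all 6 libraries. Visium slides share 1 barcode set, so a shared barcode is a shared slide position.

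The members, gene lists, comparisons and rules were chosen with earlier results of these data known. UMIs were summed over spots and scaled by TMM factors (edgeR 4.0.16, R 4.3.3; factors 0.801 to 1.18). Ratios have exact Clopper-Pearson intervals. Their calculation was checked on simulated independent Poisson counts, the model they assume, which hold no variation between spots, sections or animals. Pathway genes named were the up to 4 measured per list with the largest ratio of 5m AS over WT, and in the mixed library others chosen after their values were seen. Each pathway list was counted as the members were.

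Spots of at least 500 UMIs were clustered by leiden (scanpy 1.11.5, leidenalg 0.10.2; 2000 variable genes, 30 components, 15 neighbours, resolution 0.8) without the members. Genes were centred and scaled within each library, a step added after 86.0% of spots fell in the library holding most of their cluster without it, against 33.6% with it. Exact neighbours and shared-neighbour weights were used. A spot holds several cells, doublets were not called, and spot positions were not used. Alternatives were plain CPM, median-of-ratios factors, no mitochondrial genes, equal spot weights, other minimum levels, region-standardised ratios, subsets of spots and the mixed library in place of WT. Results of a few genes and of 1 kind of spot are not reported here.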

Additional observations from a re-analysis of the deposited data

How the results depend on the processing

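No paired analysis was possible because each group has 1 library. Of 25 results of single members past 1.5-fold (Gla in 5m AS over 2m AS among them, under the minimum level), each tried under up to 11 settings, 4 reversed, all in spots at or below the pooled median of the macrophage markers, where 5m AS has 27 of its 1992 spots. There the log2 ratio of Neu1 was 0.068 in 5m AS over WT and 0.027 over 2m AS, that of Gla -0.96 over 2m AS and that of Ctsc 0.039 in late treated over 5m AS. In those spots the members higher and lower were 1 in 5m AS over WT (higher), 2 and 1 in 5m AS over 2m AS, 2 and 2 in early treated over 5m AS, and 2 and 3 in the mixed library over WT. With plain CPM the members were 6 and 1 in 5m AS over WT, 16 and 0 over 2m AS, 2 and 3 in the mixed library, and 2 lower in 2m AS over WT. Of all genes, 24.2% and 3.71%, 42.1% and 5.09%, and 11.6% and 5.84% were then higher and lower. In 2m AS over WT 12.2% of genes were lower. With the mixed library in place of WT the members were 6 higher in 5m AS, where 13.8% of all genes were higher. In 2m AS they were 2 and 0, against 7.5% and 7.34% of all genes. That setting also changes sex and brings in Hetero kidney. In 5m AS over 2m AS, 1 was lower without mitochondrial genes, without late-segment-led clusters and in both region-standardised settings, Lipa being the member lost (log2 -0.55 to -0.37). Late treated over 5m AS had 2 lower without mitochondrial genes, and the mixed library 0 higher when standardised at resolution 1.2. The cause was not tested. The other 121 counts stayed within 1.5 times. Depth limits Gla, with at most 4.81 scaled CPM.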
